A study of Mus musculus with 6 samples.

Results

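Predicted Gm loci are mouse genes that have only a numbered placeholder name, given by annotators to a gene model with no established function. A locus was a member when its row carried a single name made of Gm and digits and when it had 60 or more raw counts over the 6 libraries; Gm48482 and Gm10167 were left out by name. The rule gave 4611 members of 59699 loci in all, 53103 of which had a gene name. Of the 26043 loci with 1 Gm name, 21430 had fewer than 60 counts and 12673 had no count. Because the members were chosen by their total count, that level is a description and not a result. The 280 members just inside the limit had 60 to 69 counts, and 328 loci just outside it had 50 to 59.

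The glands were taken at an age of 30 weeks from females of a 129 sv X CD1 cross. One group lacked Armc5 in the whole animal (KO, Armc5(-/-), 3 samples) and the other was wild type (WT, 3 samples). Armc5 encodes an adaptor of a Cullin-3 ubiquitin ligase. Total RNA was depleted of rRNA and sequenced from both ends. The labels do not say whether each sample came from a separate animal, so the spread behind a p-value may in part be technical.

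The libraries held 104737109, 70547288 and 122924298 counts in KO and 119082215, 130573434 and 89806230 counts in WT. Armc5 had 395, 269 and 473 counts in KO libraries, against 2763, 3263 and 2233 in WT libraries. KO library 3 carried hepatocyte transcripts, with a summed level of 5 hepatocyte genes of 2713 CPM (the counts per library scaled to a common total with TMM factors), against at most 14.7 CPM in the other 5 libraries. All 5 genes read for the chromaffin cells of the adrenal medulla had every KO value above every WT value. Of them 3 were called higher (adjusted p under 0.05, edgeR). The summed level of the 5 genes was 2526 to 2783 CPM in KO and 1303 to 1730 CPM in WT. Of 4 genes of the steroid-producing cortex none was called, and their summed level was 14621 to 16438 CPM in KO and 17102 to 32078 CPM in WT. Most of this sum was Star and Cyp21a1. Star had 4922 to 6827 CPM in KO and 8512 to 17582.5 CPM in WT. The groups overlapped for Cyp21a1 (7973 to 9121 CPM in KO, 7993 to 13558 CPM in WT), Mc2r and Nr5a1. In whole glands, fewer cells of a type and less RNA per cell cannot be told apart.

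The Gm names cover several kinds of RNA. Loci annotated as TEC, a class of transcripts that still await experimental study, are mostly single transcribed stretches, often inside introns of known genes, and lincRNAs are long non-coding RNAs, mostly spliced and mostly between genes. Processed pseudogenes are genomic copies of mRNAs made by reverse transcription. Many small nuclear RNAs (the U RNAs of the spliceosome, cut from their own short genes) also have a Gm name when they are additional genomic copies. The GENCODE M21 annotation of the mouse genome build GRCm38 had the same start, end and strand for 4375 members (94.9%). By that annotation there were 1356 TEC, 1347 processed pseudogenes, 490 lincRNAs, 384 antisense RNAs, 244 protein-coding genes, 183 sense intronic RNAs, 117 processed transcripts, 79 snRNAs and 69 snoRNAs. By the deposited lengths, 3291 members were single-exon (exon length at least 0.95 of the span) and 1320 were spliced.

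Several families of small nuclear RNA copies carried some of the largest differences. Their sequences are shown first because near-identical copies had fold changes of opposite sign. Only rises were called among snRNA members (3 higher, 0 lower). The first set is U1, the RNA that recognises the 5′ splice site. Gm22634 at chr12:54710308-54710471 (+) is identical to the named gene Rnu1a1, and the capitals in the other copies mark bases that differ from it. Gm26232 at chr3:96450446-96450611 (+) matches Rnu1b6 at 100% identity and has 6 substitutions and 2 inserted bases, Gm25890 at chr3:96486555-96486719 (-) has 5 substitutions and 1 inserted base, and Gm26110 at chr1:171027965-171028129 (+) has 10 substitutions and 1 inserted base. All sequences are GENCODE M21 transcripts of GRCm38, 5′ to 3′.
Gm22634: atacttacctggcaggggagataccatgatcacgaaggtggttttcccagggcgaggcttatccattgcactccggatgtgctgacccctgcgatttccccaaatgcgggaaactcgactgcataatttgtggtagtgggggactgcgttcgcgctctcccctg
Gm26232: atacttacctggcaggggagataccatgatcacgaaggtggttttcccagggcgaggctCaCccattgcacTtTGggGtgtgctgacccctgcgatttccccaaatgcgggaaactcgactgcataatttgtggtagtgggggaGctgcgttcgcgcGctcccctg
Gm25890: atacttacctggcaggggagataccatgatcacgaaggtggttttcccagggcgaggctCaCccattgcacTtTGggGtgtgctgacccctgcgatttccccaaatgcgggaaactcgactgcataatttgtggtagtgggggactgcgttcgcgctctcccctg
Gm26110: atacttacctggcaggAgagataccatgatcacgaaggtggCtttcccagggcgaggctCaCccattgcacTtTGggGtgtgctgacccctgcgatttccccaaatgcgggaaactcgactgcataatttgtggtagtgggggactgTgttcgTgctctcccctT

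The second set is U2, the RNA that pairs with the intron branch point. Gm24950 at chr11:101641748-101641938 (+) is identical to Rnu2-10, and Gm22973 at chr12:59040335-59040525 (+) differs from it at 9 of 191 bases, shown in capitals.
Gm24950: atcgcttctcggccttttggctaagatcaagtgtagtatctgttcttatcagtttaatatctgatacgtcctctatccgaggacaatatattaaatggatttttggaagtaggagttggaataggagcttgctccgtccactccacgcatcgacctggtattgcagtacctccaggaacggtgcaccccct
Gm22973: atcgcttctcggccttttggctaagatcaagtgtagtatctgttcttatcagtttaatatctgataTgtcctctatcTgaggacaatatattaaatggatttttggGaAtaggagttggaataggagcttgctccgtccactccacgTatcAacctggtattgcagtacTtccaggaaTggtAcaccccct

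Among the 4520 members that could be tested, 37 passed an adjusted p of 0.05 (edgeR's quasi-likelihood test, Benjamini-Hochberg over 21358 named loci). Expression was higher in KO for 32 of them and lower for 5. That is 0.819% of the members tested, against a background of 1.84% of all tested loci called in either direction, 1.41% called higher and 0.431% called lower. Of the tested named loci with 60 or more counts that were no members, 2.16% were called. Members were also counted less deeply, with a median level of 0.467 CPM and a median SE of the log2 fold change of 0.377, against 14.5 CPM and 0.186 for those other loci. An unadjusted p under 0.05 was reached by 670 of the 4520 members. Over all 20975 tested named loci with 60 or more counts it was reached by 4698, a larger share. The number of calls depended on the libraries. It was 1 without KO library 1, 0 without KO library 2, 1 without KO library 3, 31 without WT library 1, 37 without WT library 2 and 0 without WT library 3. No called member was called in more than 2 of these 6 fits, and DESeq2 called all 37 among 257 members.

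Without regard to a test, all 3 KO values lay above all 3 WT values for 825 members (17.9%), against a background of 16.0% of the 21363 named loci with 60 or more counts. All 3 KO values lay below all 3 WT values for 302 members (6.55%), against a background of 14.2%. The median log2 ratio of the KO mean to the WT mean, with 0.05 CPM added to each, was 0.14 for the members, -0.03 for the loci that were no members and -0.003 for both together. Spliced members had a median of 0.24 and single-exon members one of 0.10. Of the spliced members 11 rose and 2 fell, and of the single-exon members 21 rose and 3 fell, which are 0.985% and 0.729% of the class. Under a scaling to total counts, or to equal counts of Rn7sk (the 7SK RNA, which the authors also used for scaling), the median fitted log2 fold change of all named loci moved to 0.22 and 0.19. The members' median stayed 0.16 above it in both.

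The kinds of RNA differed in their shift. TEC loci had a median log2 ratio of 0.34, with 12 called higher and 0 lower, and 351 of 1356 (25.9%) lay wholly above WT while 33 lay wholly below. LincRNAs had a median of 0.32 (6 called higher, 0 lower), antisense RNAs 0.30 (2 higher, 2 lower), sense intronic RNAs 0.27 (0 called) and processed transcripts 0.35 (4 higher, 0 lower). Protein-coding members had a median of 0.17, with 3 called higher. The share of tested loci called was 0.899% for TEC, 1.26% for lincRNAs, 1.05% for antisense RNAs and 1.27% for protein-coding members. These shares were under the background of 1.84%, and that of processed transcripts was 3.45%. Processed pseudogenes had a median of -0.09, with 1 called lower (0.0759% of those tested). Of them 84 (6.24%) lay wholly above WT and 153 (11.4%) wholly below, and both shares were under the background of 16.0% and 14.2%. SnoRNAs, which guide chemical modification of other RNAs, had a median of -0.27, with 1 called lower (1.45% of those tested). Relative to all named loci, the medians of processed pseudogenes and snoRNAs stayed negative under both other scalings, although the median of processed pseudogenes itself was 0.13 with total counts and 0.11 with equal Rn7sk.

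TEC loci took 0.231%, 0.243% and 0.205% of the counts in KO libraries, against 0.132%, 0.177% and 0.165% in WT libraries. The groups did not overlap, and all 3 KO libraries were higher. The loci without any gene name took 1.77% to 2.04% in KO and 1.39% to 1.56% in WT. Transcripts of the mitochondrial genome took 13.0% to 13.5% in KO and 14.6% to 17.4% in WT. The part of these shifts, and of the chromaffin cell and cortex genes, in the result for TEC loci was not tested.

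**Figure D1:**
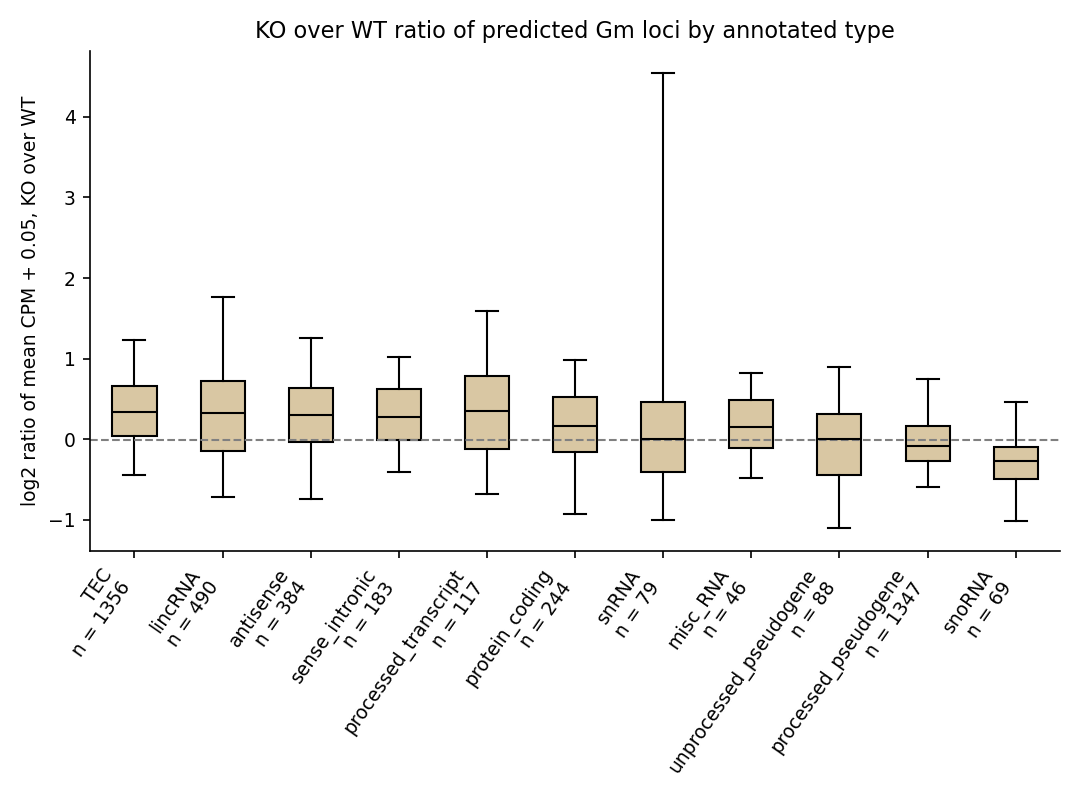
Log2 ratio of the KO mean to the WT mean (CPM plus 0.05) for 11 annotated types of predicted Gm loci. Boxes span the quartiles with the median as a line, whiskers reach the 5th and 95th percentiles, and the dashed line is the median of all named loci with 60 or more counts; TEC loci sit at a median of 0.34 and processed pseudogenes at -0.09.

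Among the called members, Gm20742, a spliced lincRNA at chr17:66193352-66199820 (+), stood first by the fitted fold change, a value that depends on the prior count where a group has no counts. With 0.05 CPM added its log2 ratio was 2.33, below 4.504 for Gm49774 and 3.77 for Gm37859. Gm20742 had 19, 18 and 25 counts in KO libraries, against 0, 0 and 0 in WT libraries. With a floor of 3 counts over the WT group it was at least 20.3-fold higher in KO, a bound that covers counting error only (adjusted p = 0.0464, edgeR). It reached the minimum of 60 counts through the KO libraries alone, so a bound of about this size was fixed by the choice of members. The nearest other gene, Ddx11, a DNA helicase, lay 38661 bases away and had a log2 fold change of 0.34 ± 0.17 (SE; adjusted p = 0.298, edgeR).

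Gm49774 and Gm37859 followed. Gm49774 is a single-exon antisense RNA at chr17:27545707-27556518 (-) opposite Hmga1, a gene for an architectural chromatin protein. Its level was 5.22, 6.09 and 5.91 CPM in KO libraries, against 0.0988, 0.379 and 0.137 CPM in WT libraries. The log2 fold change was 4.77 ± 0.53 (SE; adjusted p = 0.0200, edgeR), while Hmga1 itself had -0.30 ± 0.49 (adjusted p = 0.756, edgeR). Gm37859, a TEC locus at chr3:108532648-108534820 (-), had 110, 81 and 153 counts in KO libraries, against 0, 8 and 3 in WT libraries. It lies within 5330417C22Rik on the same strand, and that gene had a log2 fold change of -0.15 (adjusted p = 0.819, edgeR). On the opposite strand Gm37859 overlaps 1700013F07Rik, which had -0.07 (adjusted p = 0.941, edgeR). The KO values of both members lay far above all WT values, and the genes they overlap did not pass the test. Gm37859 reached the count minimum through the KO libraries, so part of its difference was fixed by the choice of members.

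Gm43426 had the highest level in CPM, not the largest fold change, of the called TEC loci among the 12 largest rises. It lies at chr5:48058051-48060647 (+) inside Slit2, which encodes a secreted axon guidance protein. It had 3.78, 4.86 and 3.42 CPM in KO libraries, against 0.632, 0.356 and 0.511 CPM in WT libraries, a log2 fold change of 3.01 ± 0.29 (SE; adjusted p = 0.0161, edgeR). Slit2 had 45.8 CPM in KO and 23.7 CPM in WT, a log2 fold change of 0.95 ± 0.17 that did not pass the test (adjusted p = 0.0512, edgeR).

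The antisense RNA Gm47400, opposite Bloc1s5, a gene of lysosome-related organelle biogenesis, had 41, 30 and 50 counts in KO libraries, against 3, 3 and 3 in WT libraries. Gm20536 is a processed transcript that overlaps Capg on the same strand and Tgoln1 on the opposite strand. It had 41, 20 and 35 counts in KO libraries, against 1, 6 and 2 in WT libraries. Capg encodes an actin-capping protein and had a log2 fold change of -0.89 (adjusted p = 0.0936, edgeR). Tgoln1 had -0.48 and was not called (adjusted p = 0.177, edgeR). The groups were apart in both members, with every KO count at least 20 and every WT count at most 6. Both reached the count minimum through the KO libraries, so part of this difference was fixed by the choice of members.

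The TEC loci Gm37022 and Gm38342 had 36, 17 and 29 counts and 70, 44 and 84 counts in KO libraries, against 4, 6 and 2 and 11, 9 and 9 counts in WT libraries. Part of the difference of Gm37022 and of Gm38342 was fixed by the choice of members, because both reached the count minimum through the KO libraries. Gm37022 lies 25837 bases from Nppc, which encodes C-type natriuretic peptide and had 1.74 CPM in KO and 0.0931 CPM in WT (log2 fold change 4.18 ± 0.92, SE; adjusted p = 0.0756, edgeR). Gm38342 lies opposite Ube2w, a ubiquitin-conjugating enzyme gene with a log2 fold change of -0.47 (adjusted p = 0.303, edgeR).

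Gm45885, annotated as a non-coding RNA of a bidirectional promoter, had 42, 32 and 62 counts in KO libraries, against 9, 4 and 6 in WT libraries. Gm45885 too reached the count minimum through the KO libraries, which fixed part of its difference. Its neighbour 260 bases away, Fam160a2, had a log2 fold change of 0.04 (adjusted p = 0.885, edgeR). The lincRNA Gm30655 had 57, 57 and 73 counts in KO libraries, against 11, 11 and 9 in WT libraries. It lies 1453 bases from Ptch1, which encodes the receptor of hedgehog ligands and had a log2 fold change of 0.40 (adjusted p = 0.137, edgeR). The log2 fold changes of these last 6 members ran from 2.57 (Gm30655) to 3.65 (Gm47400), with adjusted p-values of 0.0161 to 0.0472 (edgeR). The other 2 of the 12 largest rises are the snRNA copies Gm22973 and Gm26110.

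**Figure D2:**
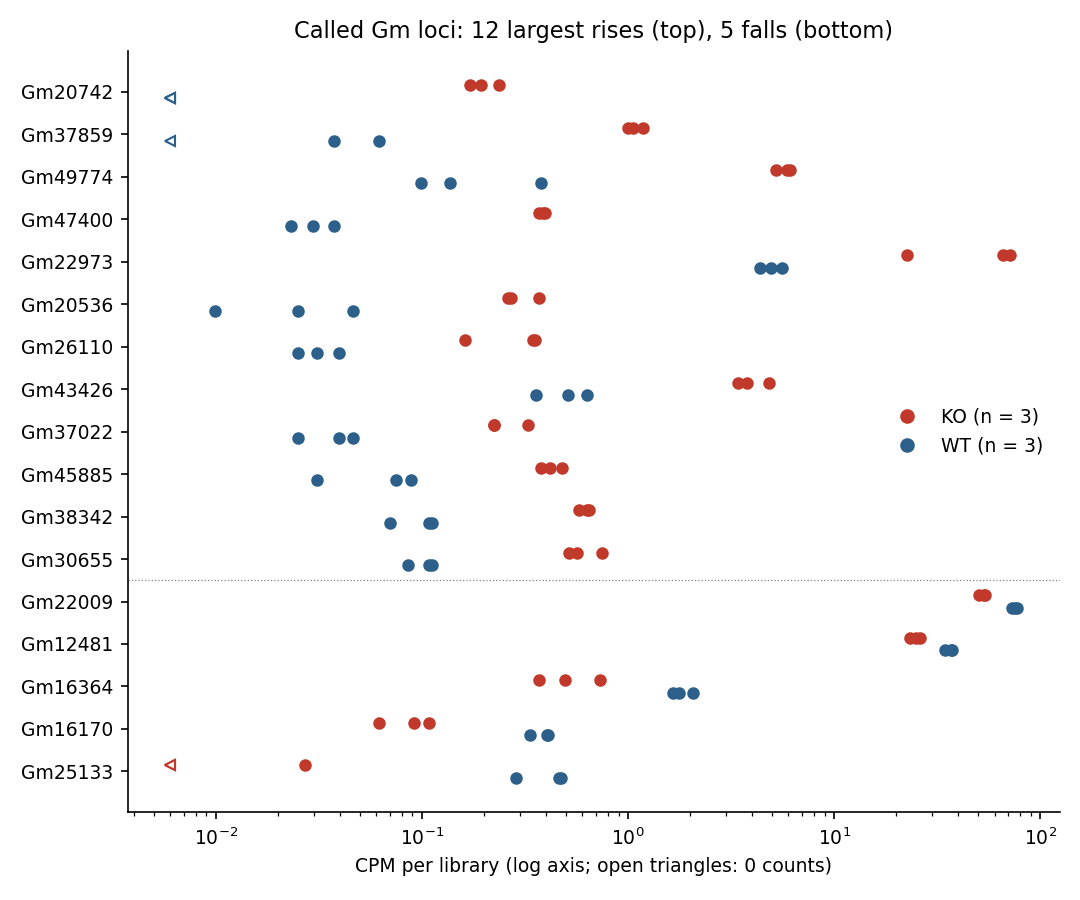
CPM in each library (log axis) of the 12 called members with the largest rises, above the dotted line, and the 5 that fell, below it. KO libraries are red and WT libraries blue, with 3 points each, and open triangles at the left stand for 0 counts, which overlie each other for the 3 WT libraries of Gm20742 and for KO libraries 2 and 3 of Gm25133; KO and WT points do not overlap in any row.

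Of the 13 called members that overlap a gene on the same strand, the gene was also called in 2 cases and had the same sign in 8. With the opposite sign were Capg (-0.89), Fcgr4 (-0.52), Zswim4 (-0.32), 5330417C22Rik (-0.15) and a merged locus with Pcdhgb4 (-0.01), none of them called. The 2 called genes both rose. Pclo, which encodes a scaffold protein of presynaptic active zones, had 158.9 CPM in KO and 83.8 CPM in WT (log2 fold change 0.92 ± 0.10, SE; adjusted p = 0.0181, edgeR), and the TEC locus Gm42447 within it had a log2 fold change of 1.28. Hap1, which encodes a huntingtin-associated trafficking protein, had 63.6 CPM in KO and 29.8 CPM in WT (log2 fold change 1.09 ± 0.08, SE; adjusted p = 0.0079, edgeR), and Gm20394 within it had 1.59. The TEC loci Gm44800 (within Fam155a, merged with Gm47312), Gm45597 (within Insyn2a) and Gm48015 (within Flrt2) had log2 fold changes of 1.02, 1.46 and 2.13, and their overlapping genes had 0.79, 0.62 and 0.22 and were not called. These members and Gm42447, Gm20394, Gm10643, Gm42372 and Gm4737 were chosen after their values were seen.

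Of the called members, 3 are annotated as protein-coding single-exon genes, and all 3 rose. Gm4737, the most abundant of them, had 53.7, 62.0 and 75.3 CPM in KO libraries, against 29.7, 31.5 and 30.8 CPM in WT libraries (adjusted p = 0.0267, edgeR). Gm42372 had 8.71, 10.2 and 9.37 CPM in KO libraries, against 4.98, 4.58 and 4.85 CPM in WT libraries (adjusted p = 0.0289, edgeR). Gm10643, within Zswim4, had 362, 320 and 499 counts in KO libraries, against 188, 241 and 155 in WT libraries (adjusted p = 0.0489, edgeR). Each was close to 1 log2 unit higher in KO, with log2 fold changes of 1.05, 0.97 and 1.00.

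RefSeq promoters (250 bases before to 50 after the start site, GRCm38.p6) were at hand for 7 of the 37 called members. A cAMP response element, TGACGTCA, read on both strands, was in 1 of the 7 and in 1.79% of all 32851 promoters. An SF-1 site, AAGGTCA, was in 0 of the 7 and in 4.72% of all promoters. The TATA box sequence, TATAAA, was in 2 of the 7 (Gm4737 and Gm14963) and in 13.6% of all promoters. Its match began at base 59 of the 300 on the strand of the gene in Gm4737. In Gm14963 it began at base 67 on the opposite strand. Both matches lay nearer to the far end of the promoter than to the start site. Whether either acts as a TATA box was not tested. The promoter with the cAMP response element is that of Gm42372, at chr7:16982833-16983132 (+), with the match in capitals. A match describes the sequence only.
Gm42372 promoter: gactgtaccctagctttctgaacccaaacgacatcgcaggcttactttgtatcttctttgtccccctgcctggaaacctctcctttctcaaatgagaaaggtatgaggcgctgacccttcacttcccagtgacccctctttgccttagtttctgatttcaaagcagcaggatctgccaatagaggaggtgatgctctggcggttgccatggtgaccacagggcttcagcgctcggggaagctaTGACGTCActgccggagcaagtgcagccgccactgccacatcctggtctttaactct

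The member with the largest fall was Gm25133, a snoRNA copy at chr14:96588827-96588956 (+) that differs from Snora30, a guide of rRNA pseudouridylation, at 2 of 130 bases, shown in capitals.
Gm25133: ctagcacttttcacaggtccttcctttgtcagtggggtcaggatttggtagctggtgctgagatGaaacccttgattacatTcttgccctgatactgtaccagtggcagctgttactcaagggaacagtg
Gm25133 had 3, 0 and 0 counts in KO libraries, against 29, 60 and 38 in WT libraries. It was higher in WT by 43.1 times, and the exact Clopper-Pearson interval at 95% ran from 14.4 to 212 (counting error only; adjusted p = 0.0489, edgeR). Gm25133 reached the minimum of 60 counts through the WT libraries, so part of this ratio was fixed by the choice of members. Snora30 itself had 1.83, 1.80 and 1.37 CPM in KO libraries, against 1.18, 0.604 and 0.698 CPM in WT libraries, and was not called (adjusted p = 0.141, edgeR). The copy was thus nearly without counts in KO while the named gene was not lower there.

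The other falls were smaller. Gm16170, an antisense RNA opposite Trim7, a gene for a ubiquitin ligase, had 12, 7 and 8 counts in KO libraries, against 34, 52 and 33 in WT libraries (log2 fold change -2.13; adjusted p = 0.0489, edgeR). Gm16364, an antisense RNA opposite the tyrosine kinase gene Fyn and listed at 2 places, had at chr10:39558496-39613682 (-) 41, 56 and 64 counts in KO libraries, against 210, 213 and 142 in WT libraries (log2 fold change -1.78; adjusted p = 0.0489, edgeR). Its other place was also lower in all 3 KO libraries and was not called (log2 fold change -1.74; adjusted p = 0.0825, edgeR). Trim7 and Fyn had log2 fold changes of -0.48 and -0.26 and were not called. Gm16170 reached the count minimum through the WT libraries, so part of its difference was fixed by the choice of members. Gm12481, a processed pseudogene opposite Fam221b, had 23.40, 25.02 and 26.07 CPM in KO libraries, against 37.34, 36.86 and 34.67 CPM in WT libraries (log2 fold change -0.55; adjusted p = 0.0450, edgeR). Fam221b was called in the other direction, with 1.33 CPM in KO and 0.509 CPM in WT. Gm22009, a scaRNA within Kpna4, was the most abundant of the 5, with 53.6, 53.7 and 50.2 CPM in KO libraries, against 73.2, 75.6 and 77.5 CPM in WT libraries (log2 fold change -0.52; adjusted p = 0.0362, edgeR).

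Of 224 members annotated as small RNAs, 80 matched a named small RNA over at least 80% of their length. Copies of U1 differed by variant. The 8 copies at least 95% identical to Rnu1a1 had log2 fold changes of -0.65 to -0.09, and none was called (adjusted p of 0.201 or more, edgeR). Their summed level was 36.0, 39.7 and 24.5 CPM in KO libraries, against 60.8, 48.2 and 38.1 CPM in WT libraries. The groups overlapped, with KO library 2 above WT library 3. The 7 copies at least 95% identical to a Rnu1b gene all had KO values above WT, with log2 fold changes of 3.11 to 4.78. Their summed level was 104.2, 94.7 and 35.9 CPM in KO libraries, against 6.86, 1.41 and 1.08 CPM in WT libraries.

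Of these 7 copies, 1 was called. Gm26110 had 38, 27 and 21 counts in KO libraries, against 4, 4 and 2 in WT libraries (log2 fold change 3.11 ± 0.52, SE; adjusted p = 0.0472, edgeR). It reached the count minimum through the KO libraries, so part of its difference was fixed by the choice of members. The other copies missed the threshold of the test, with adjusted p-values of 0.0531 to 0.0582 (edgeR). Gm25890 had 22.8, 20.5 and 7.65 CPM in KO libraries, against 1.45, 0.310 and 0.274 CPM in WT libraries (adjusted p = 0.0531, edgeR). The spliced-class copy Gm22614 had 25.5, 23.1 and 9.38 CPM in KO libraries, against 1.72, 0.341 and 0.287 CPM in WT libraries. KO library 3 was the lowest KO library and WT library 1 the highest WT library in each of these 3. Among the named genes, Rnu1b1 and Rnu1b2 were called higher, with log2 fold changes of 5.80 and 5.91, and Rnu1a1 had -0.47 and was not called. Gm26232 had 1.00 times the counts of Gm24830 in every library, and both match Rnu1b6 at 100% identity. Other copies with 100% identity to 1 gene had unequal counts, such as 1381 for Gm22634 and 673 for Gm22068 in KO library 1. Reads may be shared between copies, so the 7 copies cannot be taken as independent observations.

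Copies of U2 also went both ways. Gm22973 had 66.2, 71.2 and 22.4 CPM in KO libraries, against 5.59, 4.95 and 4.35 CPM in WT libraries, a log2 fold change of 3.42 ± 0.45 (SE; adjusted p = 0.0283, edgeR). Every KO library was above every WT library. Gm24950, Gm23849 and Gm23971, identical to Rnu2-10, and Gm26316, different at 1 base, were lower in all 3 KO libraries, with log2 fold changes of -1.02 to -0.995, and were not called. Gm24950 had 181.3, 189.2 and 55.05 CPM in KO libraries, against 323.7, 263.2 and 272.6 CPM in WT libraries (adjusted p = 0.240, edgeR). The remaining 6 of the 11 U2 copies had log2 fold changes of -0.22 to 0.49, and none was called.

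The 18 tested copies of U6 had log2 fold changes of -1.11 to 1.23, with none called. SnRNA members together took 0.153%, 0.164% and 0.0525% of the counts in KO libraries, against 0.159%, 0.152% and 0.134% in WT libraries, with KO library 3 the lowest of all.

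**Figure D3:**
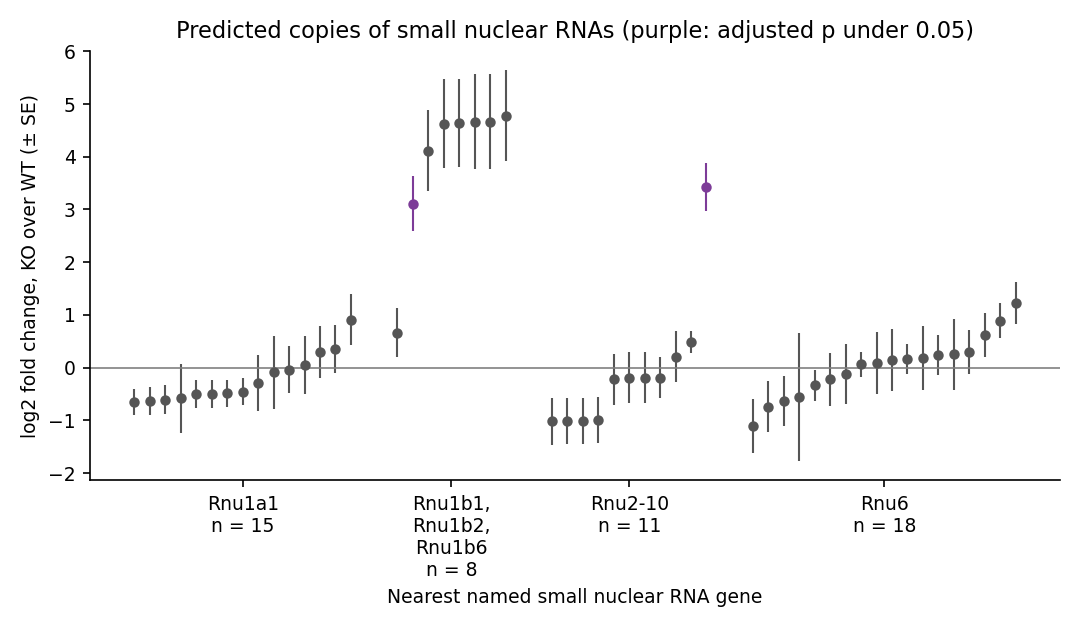
Log2 fold change (KO over WT) with its SE for each tested predicted copy of U1, U2 and U6, grouped by the named small nuclear RNA gene it matches best and ordered by value within a group; purple points passed an adjusted p of 0.05. Copies nearest a Rnu1b gene lie above 0, 7 of the 8 above 3, while copies nearest Rnu1a1 lie between -0.65 and 0.91.

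The most abundant members per length were copies of well-known RNAs. Gm24447, at chr15:93234363-93234700 (+), had the highest level of the single-exon members, 14927 CPM per kb over the 6 libraries. Its first 260 bases are shown, and the 241 in capitals are identical to Rn7sk, a regulator of transcription elongation, from its first base.
Gm24447: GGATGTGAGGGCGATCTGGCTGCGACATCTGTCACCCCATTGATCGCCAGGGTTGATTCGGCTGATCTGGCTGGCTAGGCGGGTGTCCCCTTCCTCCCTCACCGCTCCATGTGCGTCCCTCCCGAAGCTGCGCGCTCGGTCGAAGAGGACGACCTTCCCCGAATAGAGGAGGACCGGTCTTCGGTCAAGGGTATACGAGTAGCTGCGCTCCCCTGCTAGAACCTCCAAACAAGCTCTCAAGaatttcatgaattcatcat
Gm24447 had 4640, 5131 and 4423 CPM in KO libraries, against 5918, 5195 and 4963 CPM in WT libraries (log2 fold change -0.18, which turned to 0.0544 with total counts; adjusted p = 0.464, edgeR). Its counts were 0.248 to 0.267 times those of Rn7sk in all 6 libraries, and those of Gm26315, which matches Rn7sk at 99.6% over 238 bases, were 0.232 to 0.251 times. These ratios hardly moved between libraries, and reads of Rn7sk and of the copies cannot be told apart by count alone. Gm26035, second in the spliced class, had a log2 fold change -0.06 (adjusted p = 0.901, edgeR).

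On chromosome 1, 3 members are nuclear copies of mitochondrial genes. Gm10925 is 100% identical to mt-Atp6, Gm28437 to mt-Co3, and Gm28438 is 99.7% identical to mt-Nd3. Together they took 1.56% to 1.59% of the counts in KO libraries, against 1.74% to 2.06% in WT libraries. Gm28438 had 716.1, 629.1 and 698.4 CPM in KO libraries, against 1183, 934.0 and 1158 CPM in WT libraries, a log2 fold change of -0.68 that did not pass the test (adjusted p = 0.0582, edgeR). Mt-Nd3 had -0.69, and the counts of Gm28438 were 1.02 to 1.03 times those of mt-Nd3 in every library. Gm10925 had a log2 fold change of -0.58 (adjusted p = 0.101, edgeR) and Gm28437 one of -0.42 (adjusted p = 0.200, edgeR). All members together took 3.56% to 3.85% of the counts in KO and 3.84% to 3.94% in WT. Without these 3 loci, Gm24447 and Gm26315 the shares were 1.07% to 1.19% in KO and 0.964% to 1.10% in WT.

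Other members with the highest level per length were the remaining U2 copies Gm24950 and Gm23849 in the single-exon class and Gm23935, Gm1821, Gm13394 and Gm7329 in the spliced class. None of these 6 was called. Gm23935 had 65.5, 47.0 and 57.3 CPM in KO libraries, against 59.2, 194.7 and 97.4 CPM in WT libraries, with WT library 2 far above the rest. Gm13394 had 106.5, 38.1 and 176.5 CPM in KO libraries, against 51.4, 133.2 and 38.4 CPM in WT libraries. Its spread within each group was larger than the difference between the groups.

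Among the uncalled members with the smallest p were several with groups apart. Gm26702, a lincRNA opposite Ajm1, had 0.145, 0.341 and 0.301 CPM in KO libraries, against 0, 0 and 0 in WT libraries. With a floor of 3 counts over the WT group it was at least 26.5-fold higher in KO (adjusted p = 0.0524, edgeR). It too reached 60 counts through the KO libraries alone. Gm17382, a lincRNA, had 0.145, 0.407 and 0.464 CPM in KO libraries, against 1.60, 2.26 and 2.31 CPM in WT libraries (log2 fold change -2.60; adjusted p = 0.0512, edgeR). Gm42655, Gm10433, Gm41361 and Gm47163 had log2 fold changes of -2.27, 2.65, -2.41 and 0.92, with adjusted p-values of 0.0506 to 0.0551 (edgeR). Gm10433 reached the count minimum through the KO libraries and Gm41361 through the WT libraries. Part of their difference was thus fixed by the choice of members.

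Processed pseudogenes were set beside the coding gene they most resemble. Of 1422 such members searched, 1336 matched a coding transcript, with a median identity of 97.4% and 726 parent genes. The most frequent parent was Gapdh, a glycolytic enzyme gene, with 59 copies, and 331 copies matched a ribosomal protein gene. Members with an identity of 99% or more had a median log2 ratio of -0.16, those with 95% to 99% one of -0.11 and those under 95% one of 0.08. Across loci, the fold changes of copy and parent had a Pearson r of 0.557 for an identity of 99% or more (n = 266), 0.281 for 95% to 99% (n = 431) and 0.113 under 95% (n = 229). These points share libraries, copies of 1 parent share that parent, and copies and parents may share reads where their sequences are alike. The copies of ribosomal protein genes had an r of -0.236 (n = 178). The rank correlation (Spearman's rho) of the same pairs was only -0.078. The copies of Gapdh had a median log2 fold change of -0.07, and Gapdh had -0.15.

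The shift of single-exon members differed by position, and so did their mix of types. Of all members, 2045 overlapped another named locus on the same strand, 930 only on the opposite strand and 1636 none. Single-exon members had a median log2 ratio of 0.24 on the strand of another locus, 0.02 opposite one and -0.06 without overlap. Of the 1752 on the same strand, 1079 were TEC loci and 335 processed pseudogenes, against 160 and 714 of the 1068 without overlap. The part of this mix in the difference was not tested. Spliced members had 0.21, 0.28 and 0.21. TEC loci had medians of 0.34 for 1083 loci on the same strand, 0.34 for 112 on the opposite strand and 0.36 for 161 without overlap. Processed pseudogenes had 0.07 on the same strand (n = 376), -0.15 on the opposite strand (n = 220) and -0.12 without overlap (n = 751).

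The fold changes of members and of the genes they overlap were related on the same strand. Pearson's r across loci was 0.357 for 1985 pairs on the same strand, with 1291 overlapping genes, and 0.046 for 1053 pairs on opposite strands. On the same strand the member had the higher fold change in 73.0% of pairs, with a median log2 fold change of 0.27 for the members and -0.04 for the overlapping genes. On opposite strands it was 62.7% of pairs, with medians of 0.18 and -0.07. The opposite-strand pairs include members that also overlap a gene on the same strand. These pairs share libraries and may share reads, and members within 1 gene share that gene.

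**Figure D4:**
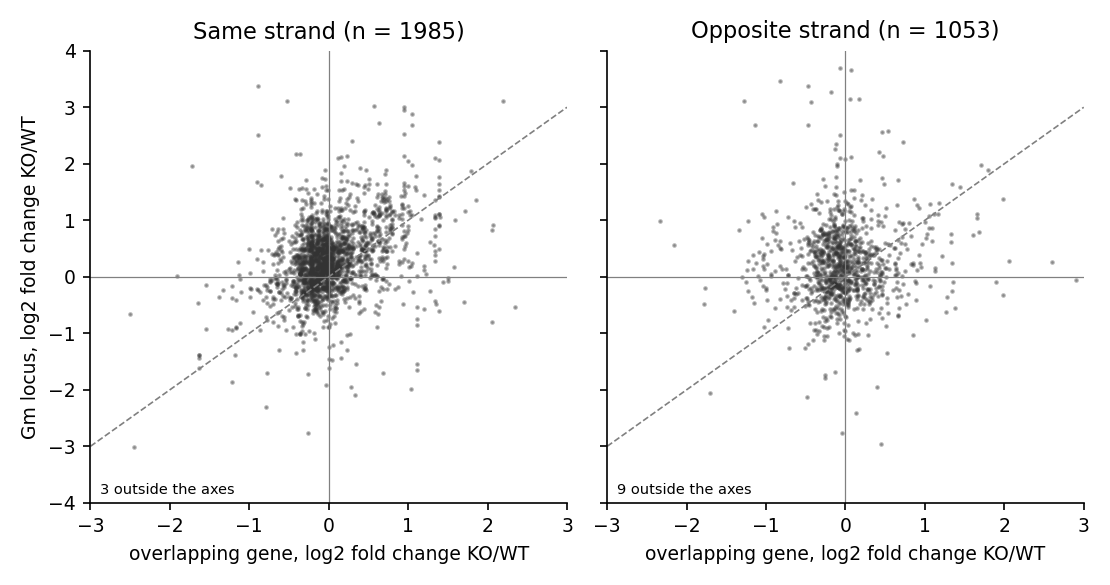
Log2 fold change (KO over WT) of each predicted Gm locus on the vertical axis against that of the gene it overlaps on the horizontal axis, for the same strand (left, 1985 pairs) and the opposite strand (right, 1053 pairs). Each point is a pair and the dashed line marks equal values. Of the pairs, 73.0% on the same strand and 62.7% on the opposite strand lie above it, and 3 and 9 pairs lie outside the axes.

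Some members varied between libraries of 1 group by more than any difference between the groups. A stretch at the end of chromosome 2, chr2:175010241-178028736, chosen after its values were seen, held 47 members, 30 of them protein-coding, 15 pseudogenes and 2 lincRNAs. The stretch also holds zinc finger genes named Zfp. KO library 1 was the lowest of the 6 libraries for 36 of the 47 members, had 0 counts for 10 and lay under 10% of the median of the other libraries for 24. Gm14403 had 0, 27.3 and 18.7 CPM in KO libraries, against 13.0, 4.07 and 23.4 CPM in WT libraries. Gm14412 had 0, 4.57 and 2.71 CPM in KO libraries, against 3.55, 4.28 and 9.25 CPM in WT libraries, and Gm17258 had 0, 3.68 and 1.71 CPM, against 1.44, 1.39 and 4.11 CPM. The level summed over the 47 members was 45.0, 228.6 and 153.7 CPM in KO libraries, against 148.9, 103.4 and 231.1 CPM in WT libraries. None was called.

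Of 7 single-gene Zfp loci in the stretch, KO library 1 was the lowest for 3. Zfp970 had 0.525, 23.2 and 22.2 CPM in KO libraries, against 17.0, 8.43 and 28.7 CPM in WT libraries. Over all members with a median of at least 0.5 CPM in the other libraries, KO library 1 lay under 10% of that median for 27, of which 17 are in this stretch. The same count was 14 in KO library 2, 4 in KO library 3, 9 in WT library 1, 25 in WT library 2 and 23 in WT library 3. The mice were of a mixed background, and the part of genetic background in these differences was not tested.

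**Figure D5:**
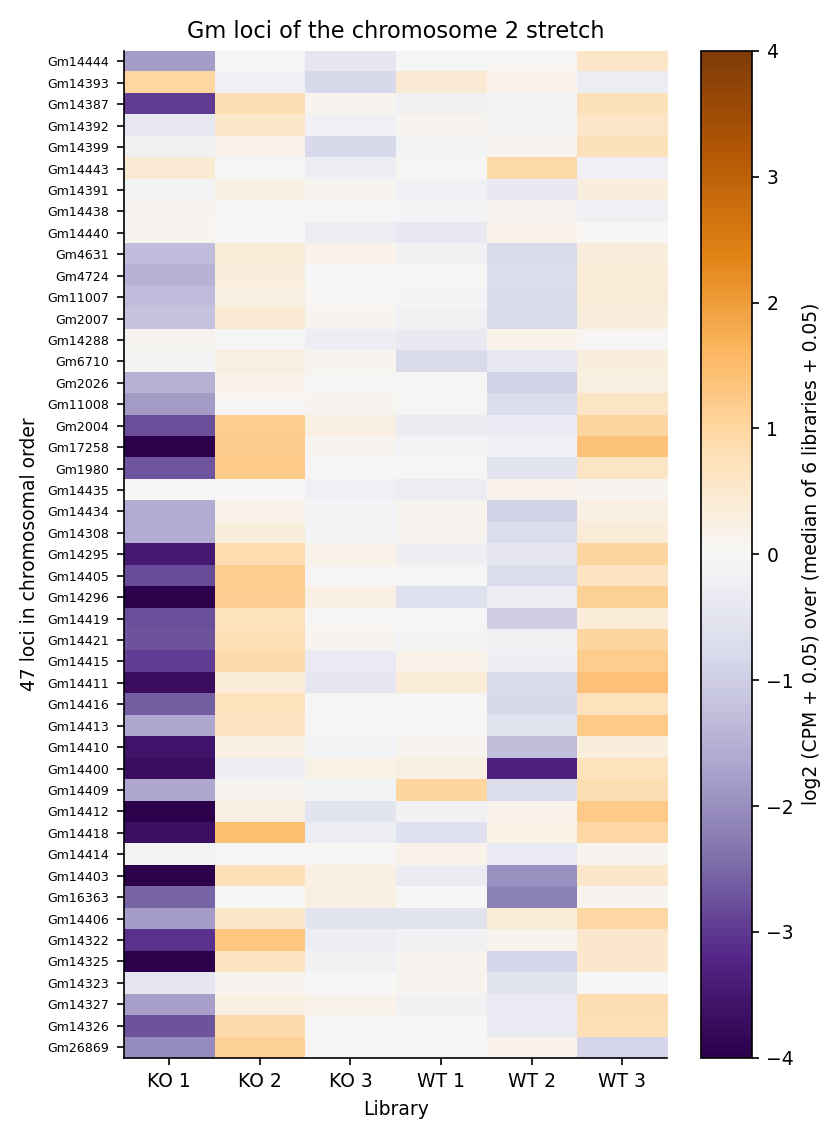
CPM of the 47 members of the chromosome 2 stretch in each library, as log2 of CPM plus 0.05 over the median of the 6 libraries plus 0.05; rows follow the chromosome and columns are KO 1 to 3 and WT 1 to 3. Purple cells are below and orange cells above the median, with colours ending at 4 log2 units, and KO library 1 was the lowest library in 36 of the 47 rows.

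Single loci elsewhere were present in some libraries and without counts in others. Gm6977, a processed pseudogene on the X chromosome, had 0, 3.75 and 7.05 CPM in KO libraries, against 6.06, 0 and 6.71 CPM in WT libraries. The lincRNA Gm14461 had 0, 0 and 0.0155 CPM in KO libraries, against 0, 5.37 and 1.23 CPM in WT libraries. Gm19331, a lincRNA opposite Ighv1-62-1, had 10.01, 2.31 and 7.61 CPM in KO libraries, against 0, 0 and 2.34 CPM in WT libraries (adjusted p = 0.374, edgeR). Gm12873 had 0.625, 2.32 and 1.37 CPM in KO libraries, against 2.33, 1.70 and 0 CPM in WT libraries. None of these was called, and Gm14461 was not among the loci tested.

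Members over 10 times as high in 1 library as in every other, with at least 1 CPM there, were few and were chosen after their values were seen. Gm4952 had 242 counts in KO library 3 and 0 in the other 5 libraries, and Gm4756 had 450 counts in KO library 3 and at most 6 elsewhere, the library that also carried hepatocyte transcripts. Gm830 had 14.8 CPM in WT library 1 and 0.287 to 1.11 CPM elsewhere. Near the targeted gene, 32 members lay within 5 Mb of Armc5 on chromosome 7. None was called, against 4 of 132 other loci there, and their median log2 ratio was 0.43. Of the 32, 8 (25%) lay wholly above WT and 2 (6.25%) wholly below, beside the background of 16.0% and 14.2%.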

How the data were processed

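RNA of 3 KO and 3 WT adrenal samples was measured. Per the file headers, the authors deposited raw read counts per locus, which were used in all main tests, and log2 CPM values, which entered 1 alternative. Span and exon lengths are the authors' own deposited base pairs. The tools listed by the submitters' processing notes are STAR, StringTie, edgeR, Picard and Trimmomatic, with build GRCm38. Their versions are not given here, nor are the counting program and whether it used strand, so reads of overlapping or near-identical loci may be shared between rows. Total counts per library ranged from 70547288 to 130573434.

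Named loci were filtered with filterByExpr, scaled with TMM and tested with edgeR 4.0.16 (R 4.3.3; glmQLFit with robust estimation, two-sided glmQLFTest). P-values were adjusted over the 21358 loci tested. The 6596 loci without a gene name, 1.39% to 2.04% of the counts, were left out. An SE is the log2 fold change divided by the square root of F. On simulated counts with 4-fold changes in 200 of 21358 loci, 136 were called, with 13 false calls. Copies were matched with BLAST+ 2.17.0 to GENCODE M21 transcripts. A member described as within or inside a gene overlaps its span, and full enclosure was not checked. Intervals and floors cover counting error only.

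The members, lists and tests were chosen with earlier results of these data known. Members named in the text are the 12 largest rises and the falls among called members without overlap, the 6 highest per length and the 4 uncalled with the smallest p in each class, the 4 with the widest spread within KO and within WT at 1 CPM or more, the listed nuclear copies of mitochondrial genes (3 of 9 were members; 0 of 2 listed loci that overlap rRNA were), and the neighbours of the first. The alternatives were other scalings, filters and tools (DESeq2 1.42.0, limma 3.58.1), a replicate block and leaving out libraries. Of 4605 different member names, 598 had a RefSeq promoter. Not all small RNA families are reported here.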

Additional observations from a re-analysis of the deposited data

How the results depend on the processing

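Calls of members (37 in the main test, 32 higher and 5 lower, 13 spliced and 24 single-exon, beside 393 loci in all) depended on scaling, tool and libraries. Scaling to total counts gave 72 (71 higher, 1 lower; 26 spliced, 46 single-exon; 674 in all), with median log2 fold changes of 0.38, 0.49 for spliced and 0.34 for single-exon members. Scaling to equal Rn7sk gave 91 (84 higher; 33 spliced, 58 single-exon; 711 in all), with medians of 0.35, 0.46 and 0.31. DESeq2 gave 257 (206 higher, 51 lower; 90 spliced, 167 single-exon; 2155 in all), and limma-trend on the deposited log2 CPM gave 120 (112 higher, 8 lower; 49 spliced, 71 single-exon; 975 in all), with medians of 0.37, 0.48 and 0.33. A limit of 10 CPM in 3 libraries left 197 members, with 6 called (4 higher, 2 lower; 2 spliced, 4 single-exon) and medians turned to -0.0826, with -0.10 for single-exon and 0.0176 for spliced members. Without the low filter, or with unnamed loci kept, 3 were called lower. With the replicate block, 0 members (0 higher, 0 lower; 0 spliced, 0 single-exon) and 5 loci in all were called; same-numbered samples correlated at -0.086, 0.012 and -0.142, so the numbers were not taken to pair samples. Leaving out 1 library gave 0 to 37 members (0 to 31 higher, 0 to 8 lower; 0 to 15 spliced, 0 to 22 single-exon) and 15 to 644 loci in all, with medians of 0.13 to 0.20 (spliced 0.23 to 0.33, single-exon 0.0941 to 0.17). Leaving out both WT library 1 and KO library 3, chosen after seeing the data, gave 6 (6 higher, 0 lower; 1 spliced, 5 single-exon) and 16 in all. Without members on the strand and span of another locus, also chosen after seeing the data, the medians were 0.0505 for all and -0.0480 for single-exon members. Size factors of DESeq2's kind, count minimums of 30 or 120 and length limits of 0.90 or 0.99 kept all these counts within 1.5 times. The causes were not tested. No called named member changed direction. Uncalled ones changed sign. With total counts Gm24447 had 0.0544, Gm26035 0.174, Gm26315 0.0550, Gm6977 0.0538 and Gm7329 0.198. With equal Rn7sk they had 0.0201, 0.160, 0.0211, 0.0243 and 0.183. With limma-trend Gm14403 had -2.04, Gm24447 0.0465, Gm26035 0.180, Gm26315 0.0475 and Gm7329 0.179. With 10 CPM Gm26035 had 0.0176 and Gm7329 0.0365, with the replicate block Gm14403 had -0.727 and Gm6977 0.0426, and without WT library 1 and KO library 3 Gm13394 had -0.247 and Gm14403 -0.00968. Leaving out 1 library gave -0.494 to 0.726 for Gm12873 (0.753 without WT library 1 and KO library 3), -0.0409 to 1.27 for Gm13394, -0.528 to 0.839 for Gm14403, -1.43 to 0.330 for Gm17258, -0.225 to 0.0924 for Gm26035, -1.19 to 0.347 for Gm6977 and -0.144 to 0.107 for Gm7329.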
